A study of Mus musculus with 12 samples.

Results

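The 37 genes described here encode the enzymes of the tricarboxylic acid (TCA) cycle with complex II, the pyruvate dehydrogenase complex with its kinases and phosphatases, the mitochondrial pyruvate carrier, and the transaminases and malate enzymes that feed or drain the cycle. They are a list of names drawn up by role in the pathway, out of the 53700 genes of the count table, and all 37 passed the count filter that kept 17847 genes. RNA was taken from whole hearts of male mice, 6 in the ac-WT group and 6 in the ac-CYB5R3-KO group. Both groups carried the inducible Myh6-CreERT2 transgene and received Tamoxifen, and they differed in the Cyb5r3 alleles, written CYB5R3wt/wt in ac-WT mice and CYB5R3fl/fl in ac-CYB5R3-KO mice. Injections of 33 mg/kg/d began at 10 to 13 weeks of age and lasted 5 days, and hearts were taken 5 days later. The Myh6 promoter is active in cardiomyocytes, so other cells of a floxed heart keep the gene, and no group without Cre or without Tamoxifen was analysed here. Each library is 1 mouse, so p-values measure the spread between mice.

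Pyruvate enters mitochondria through a carrier made of MPC1 and MPC2, and the pyruvate dehydrogenase complex turns it into acetyl-CoA. Kinases (PDK) switch that complex off by phosphorylation and phosphatases (PDP) switch it on again. The TCA cycle then oxidizes acetyl-CoA from pyruvate and fatty acids, and its NADH and FADH2 feed the respiratory chain, which gives the beating heart nearly all of its ATP. CYB5R3 itself takes electrons from NADH.

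The targeted gene was checked first. Cyb5r3 spanned 81.9 to 185 CPM (median 121) in ac-WT hearts against 42.0 to 67.4 CPM (median 52.7) in ac-CYB5R3-KO hearts. The groups did not overlap, and the log2 fold change was -1.22 (SE 0.19, edgeR adjusted p = 0.0450) with all hearts and -1.41 without ac-WT hearts 2 and 3. The call is close to the threshold and was lost when any of 8 hearts was left out singly, with log2 fold changes from -1.31 to -1.08 over the 12 ways of leaving 1 out. Total counts ran from 43393183 to 53754284 per heart. TMM, which scales each library so that most genes keep their level, gave factors of 0.570 and 0.723 to ac-WT hearts 2 and 3 and from 0.988 to 1.22 to the other 10. A factor below 1 raises the normalized value of every gene of a library, and these hearts stood apart from the others in other lists too. The summed level of 12 cardiomyocyte markers was 61491 CPM in ac-WT heart 2 and 48765 CPM in heart 3, and ran from 27014 to 30641 CPM in the other ac-WT hearts against 20025 to 33387 CPM in ac-CYB5R3-KO hearts. Of these markers 10 had a lower fitted value in ac-CYB5R3-KO hearts, 5 of them at an unadjusted p under 0.05 in edgeR, and none was at 0. Of all genes tested 51.2% had a lower fitted value, and at that level 9.73% were lower and 4.91% higher. Marker counts without ac-WT hearts 2 and 3 are not given here. The 8 fibroblast markers ran the other way, with sums of 1561 CPM (heart 2) and 1755 CPM (heart 3), while the other ac-WT hearts lay between 5121 and 9687 CPM and ac-CYB5R3-KO hearts between 5084 and 7940 CPM. The 5 matched erythroid markers spanned 222 to 4487 CPM in ac-WT hearts against 1323 to 12228 CPM in ac-CYB5R3-KO hearts, with 3 of 5 higher at an unadjusted p under 0.05 in edgeR. Summed endothelial markers (363 to 748 CPM in ac-WT and 370 to 645 CPM in ac-CYB5R3-KO hearts) and leukocyte markers (61.0 to 232 and 112 to 194 CPM) overlapped between groups. So did smooth muscle (75.4 to 187 and 76.9 to 138 CPM), atrial (412 to 967 and 443 to 1627 CPM, 3 of 5 tested), skeletal muscle (9.43 to 28.2 and 11.1 to 36.4 CPM, 3 of 6 tested) and adipocyte markers (12.6 to 34.1 and 15.4 to 26.2 CPM, all from Cidea, the other 5 of 6 being under the count filter). At an unadjusted p under 0.05 in edgeR, 2 of 4 smooth muscle markers were lower and 1 was higher. At that level 1 atrial and 1 skeletal muscle marker were lower. No listed marker was at 0 counts in all hearts. The part of these marker differences in the results below was not tested, and in whole-heart RNA fewer cells of a type and less RNA per cell cannot be told apart. The counts by list and many of the gene values below are therefore also given without ac-WT hearts 2 and 3, and the plot of log2 fold changes by role shows this value for each of the 37 genes.

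Most of the TCA cycle and pyruvate genes had a lower fitted level in ac-CYB5R3-KO hearts, by small amounts and not under every scaling, and none passed the adjusted threshold in edgeR. With TMM factors the fitted value was lower for 32 of 37 genes (86.5%), against 51.2% of all genes tested, and their median log2 fold change was -0.26, against -0.01 over all genes. An adjusted p under 0.05 was reached by 0 of 37 genes (the lowest was 0.173), against 0.101% of all genes tested. At an unadjusted p under 0.05, 9 genes were lower (24.3%), against 9.73% of all genes, and 1 was higher, against 4.91%. At an unadjusted p under 0.01, 2 genes were lower (5.41%), against 3.27%, and 0 were higher, against 1.33% (edgeR). DESeq2 called 1 of the 37 genes, Suclg1 (adjusted p = 0.0188), which is 2.70% against 2.45% of all genes, and limma-voom called 0, against 0.0112%. The 6 ac-CYB5R3-KO hearts were all under the 6 ac-WT hearts for 2 genes, Sdhb and Mpc2, against 1.04% of all genes, and above for none, against 0.51%.

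The share at an unadjusted p under 0.05 rested largely on 2 hearts, and the count of lower fitted values less so. Without ac-WT hearts 2 and 3 the fitted value was lower for 26 of 37 genes, against 46.2% of all genes. The median log2 fold change was then -0.074 (0.016 over all genes). In edgeR 2 genes were lower at an unadjusted p under 0.05, which is 5.41% against 4.52% of all genes. At an unadjusted p under 0.01 it was 1 gene, which is 2.70% against 1.33% (edgeR). Scaled by total counts instead of TMM, 12 of 37 genes were lower, against 18.1% of all genes. Their median was 0.041, while the median of all genes moved to 0.26, so that 33 of the 37 still lay below it. With that scaling 0 of the 37 were lower at an unadjusted p under 0.05, against 2.06% of all genes, and 0 under 0.01, against 0.79% (edgeR).

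**Figure D1:**
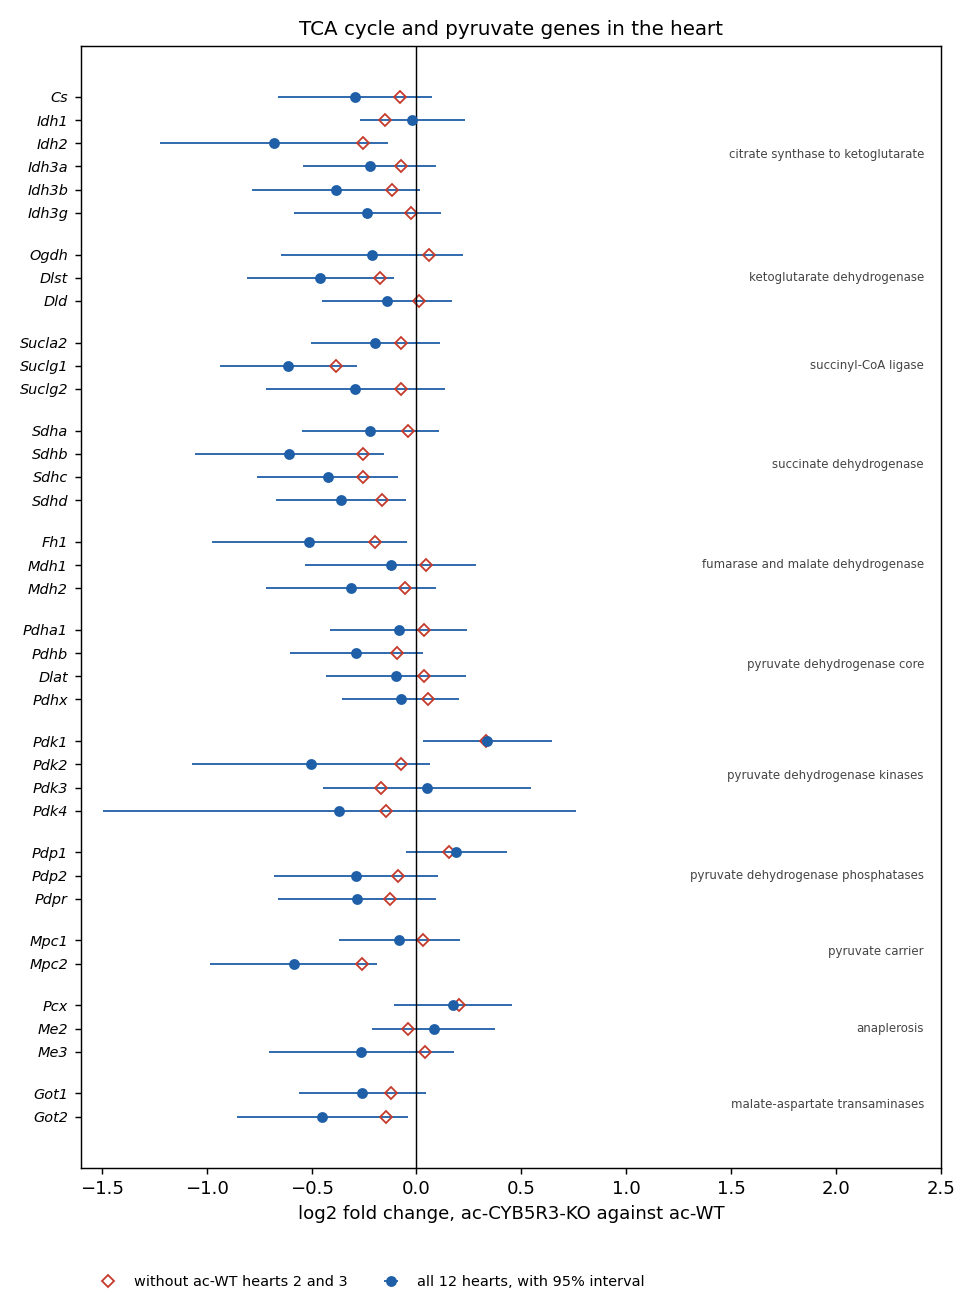
Log2 fold change (x axis) of the 37 genes in ac-CYB5R3-KO against ac-WT hearts, grouped by role. Filled circles with 95% intervals are from all 12 hearts and open diamonds leave out ac-WT hearts 2 and 3. With all hearts 32 genes lie left of 0 (12 if scaled by total counts), and without the 2 hearts 26 do. The shares of all genes tested were 51.2%, 18.1% and 46.2% in the same order.

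With TMM-normalized values, most of the genes were highest in 1 heart of each group and lowest in another. Among ac-WT hearts, heart 2 held the highest value for 31 of the 37 genes and heart 4 the lowest for 28. Among ac-CYB5R3-KO hearts, heart 2 held the highest value for 32 genes and heart 3 the lowest for 30. Relative to the ac-WT median of each gene, the median over the 37 genes was 0.51 on the log2 scale in ac-WT heart 2 and 0.16 in ac-WT heart 3, and from -0.24 to -0.0013 in the other ac-WT hearts. In ac-CYB5R3-KO hearts it was 0.17 in heart 2, -0.54 in heart 3 and from -0.24 to -0.083 in the other 4. The groups thus overlapped for the list as a whole. Before any scaling factor, the 37 genes took from 0.544% to 0.715% of the counts of ac-WT hearts and from 0.518% to 0.824% of those of ac-CYB5R3-KO hearts. Ac-WT heart 2, at 0.613%, then lay below ac-WT hearts 1, 5 and 6 (0.622%, 0.715% and 0.710%), and ac-WT heart 3 was the lowest of its group. In the ac-CYB5R3-KO group heart 2 was still the highest and heart 3 the lowest. The cardiomyocyte markers of ac-CYB5R3-KO heart 3, at 20025 CPM, were also the lowest of the 12 hearts, and its erythroid markers, at 12228 CPM, the highest.

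**Figure D2:**
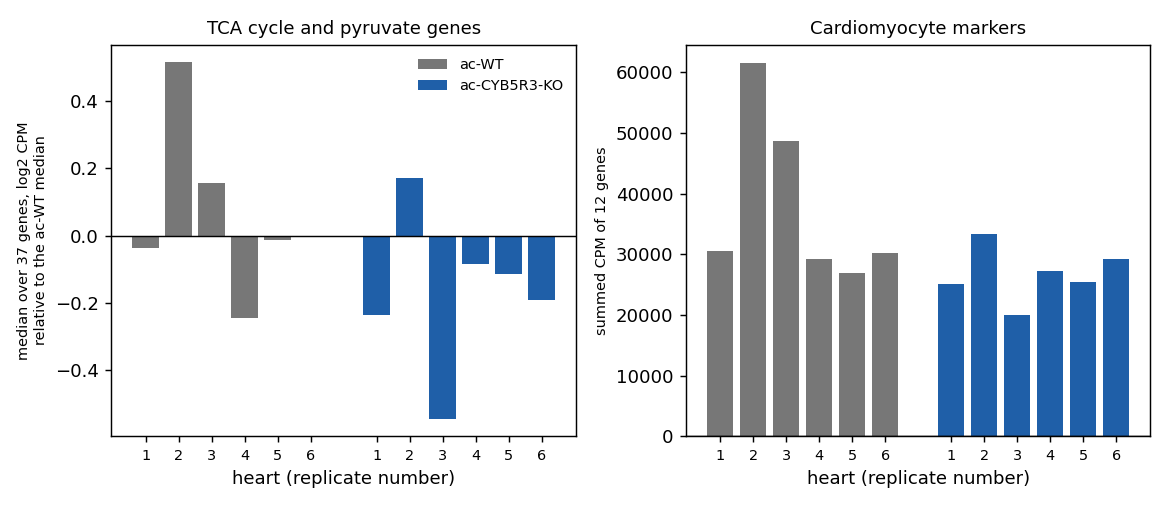
Each bar is 1 heart, numbered by replicate. Left, the median over the 37 genes of log2 CPM relative to the ac-WT median of each gene, and right, the summed CPM of 12 cardiomyocyte markers. CPM is TMM-normalized, and on that scale ac-WT heart 2 is the highest and ac-CYB5R3-KO heart 3 the lowest in both panels.

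In the first steps of the cycle, from citrate synthase to the isocitrate dehydrogenases, 6 of 6 genes had a lower fitted value, against 51.2% of all genes. With total counts 2 of 6 did, against 18.1%. With TMM factors 1, Idh2, had an unadjusted p under 0.05 in edgeR, a level that 9.73% of all genes reached in that direction. Cs, citrate synthase, joins acetyl-CoA to oxaloacetate and is widely used as a measure of mitochondrial content. It spanned 338 to 644 CPM (median 392) in ac-WT hearts against 245 to 417 CPM (median 361) in ac-CYB5R3-KO hearts. The log2 fold change was -0.29 (SE 0.17, 95% interval -0.66 to 0.074, edgeR adjusted p = 0.443), and -0.077 without ac-WT hearts 2 and 3. The groups overlapped and ac-WT heart 2 was the highest of the 12. Idh2, the NADP-linked mitochondrial enzyme, had a median of 468 CPM in ac-WT hearts and 323 CPM in ac-CYB5R3-KO hearts and the lowest log2 fold change of the 37 genes, -0.68 (SE 0.25). Its range was 326 to 988 CPM in ac-WT and 256 to 451 CPM in ac-CYB5R3-KO hearts, and the groups overlapped. With ac-WT hearts 2 and 3 left out its log2 fold change was -0.26. The subunits of the NAD-linked enzyme, Idh3a, Idh3b and Idh3g, had log2 fold changes of -0.22, -0.38 and -0.23, and of -0.072, -0.11 and -0.027 without these hearts. Idh1, the NADP-linked enzyme of the cytosol, was at 24.8 CPM in ac-WT hearts and 23.4 CPM in ac-CYB5R3-KO hearts (medians), with a log2 fold change of -0.02 and a 95% interval of -0.27 to 0.23.

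The 2-oxoglutarate dehydrogenase complex and succinyl-CoA ligase follow. Among the 3 subunits of the complex, Dlst, the succinyltransferase core, had a fitted difference of -0.46 ± 0.16 (log2, SE, edgeR adjusted p = 0.235), Ogdh, which decarboxylates 2-oxoglutarate, -0.21, and Dld, the shared dihydrolipoamide dehydrogenase, -0.14. Dlst spanned 148 to 279 CPM in ac-WT hearts against 115 to 155 CPM in ac-CYB5R3-KO hearts. Without ac-WT hearts 2 and 3 the log2 fold change of Dlst was -0.17, and those of Ogdh and Dld turned to 0.06 and 0.012. With total counts Dlst alone of the 3 stayed below 0.

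Suclg1 had the smallest p of the 37 genes. It encodes the alpha subunit of succinyl-CoA ligase, which pairs with SUCLA2 to make ATP or with SUCLG2 to make GTP. In ac-WT hearts it ran from 136 to 241 CPM (median 169) and in ac-CYB5R3-KO hearts from 93.7 to 142 CPM (median 118). Only the highest ac-CYB5R3-KO heart, heart 2, lay above the lowest ac-WT heart, heart 4. The log2 fold change was -0.61 (SE 0.15, 95% interval -0.94 to -0.28, edgeR adjusted p = 0.173), and without ac-WT hearts 2 and 3 it was -0.38. Its partners Sucla2 and Suclg2 had log2 fold changes of -0.20 and -0.29, with intervals that reached 0.11 and 0.14. Within each heart, the log2 ratio of Suclg1 to Sucla2 counts ran from -0.013 to 0.43 in ac-WT hearts against -0.39 to -0.18 in ac-CYB5R3-KO hearts, without overlap. The log2 ratio of Suclg1 to Suclg2 counts ran from 1.53 to 2.13 in ac-WT hearts against 1.25 to 1.80 in ac-CYB5R3-KO hearts, with overlap. Both ratios were chosen after the values were seen and were not tested.

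Complex II, or succinate dehydrogenase, belongs to both the cycle and the respiratory chain. The 4 subunit genes had a lower fitted value, as did 51.2% of all genes. In edgeR 3 of them had an unadjusted p under 0.05, a level that 9.73% of all genes reached in that direction. With total counts, or without ac-WT hearts 2 and 3, 0 of the 4 reached it, and with total counts Sdha turned positive (0.089). Sdhb, the iron-sulfur subunit, spanned 330 to 768 CPM (median 353) in ac-WT hearts against 210 to 329 CPM (median 294) in ac-CYB5R3-KO hearts. The groups did not overlap, although the highest ac-CYB5R3-KO heart (329 CPM) lay just under the lowest ac-WT heart (330 CPM). The log2 fold change was -0.61 (SE 0.21, edgeR adjusted p = 0.225), and -0.26 without ac-WT hearts 2 and 3. The membrane anchors Sdhc and Sdhd had log2 fold changes of -0.42 (SE 0.16, edgeR adjusted p = 0.246) and -0.36 (SE 0.14, edgeR adjusted p = 0.273), which came to -0.25 and -0.16 with the 2 hearts left out. Sdha, the flavoprotein subunit that oxidizes succinate, spanned 212 to 376 CPM (median 269) in ac-WT hearts against 181 to 305 CPM (median 241) in ac-CYB5R3-KO hearts. This is a log2 fold change of -0.22 (95% interval -0.55 to 0.11). The log2 ratio of Sdhb to Sdha counts was from 0.31 to 1.03 in ac-WT hearts against 0.11 to 0.42 in ac-CYB5R3-KO hearts, where 5 of 6 lay below every ac-WT heart. It too was chosen after the values were seen and was not tested.

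The last steps of the cycle and the malate-aspartate shuttle, which carries cytosolic reducing equivalents into mitochondria, use pairs of enzymes on both sides of the inner membrane. Fh1, fumarase, had a median of 141 CPM in ac-WT hearts and 115 CPM in ac-CYB5R3-KO hearts, with a fitted difference of -0.51 ± 0.22 (log2, SE, edgeR adjusted p = 0.294). It came to -0.20 without ac-WT hearts 2 and 3, and ac-WT heart 2 stood at 298 CPM against 161 CPM in the next heart. Mdh2, the mitochondrial malate dehydrogenase, had a log2 fold change of -0.31 and Mdh1, its cytosolic partner, -0.12, and leaving out these hearts moved them to -0.056 and 0.043. Per kilobase of exon these were the most abundant of the 37 genes, with medians of 242 and 284 CPM per kb in ac-WT hearts and 227 and 275 CPM per kb in ac-CYB5R3-KO hearts. Of the transaminases, mitochondrial Got2 had a fitted difference of -0.45 ± 0.19 (log2, SE, edgeR adjusted p = 0.292) and cytosolic Got1 one of -0.26 (SE 0.14, edgeR adjusted p = 0.413). Leaving out ac-WT hearts 2 and 3 gave -0.14 and -0.12.

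At the entry of pyruvate the 2 carrier genes behaved unequally. Mpc2 spanned 169 to 378 CPM (median 192) in ac-WT hearts against 124 to 161 CPM (median 155) in ac-CYB5R3-KO hearts. No ac-CYB5R3-KO heart reached the lowest ac-WT heart. The log2 fold change was -0.58 (SE 0.19, 95% interval -0.98 to -0.19, edgeR adjusted p = 0.203), and without ac-WT hearts 2 and 3 it was -0.26. Mpc1 spanned 92.8 to 156 CPM (median 110) in ac-WT hearts against 85.4 to 126 CPM (median 109) in ac-CYB5R3-KO hearts. On the log2 scale the fold change was -0.08 (95% interval -0.37 to 0.21), and the groups overlapped almost entirely.

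The proteins form a heterodimer, so the ratio of both RNAs within a heart is a natural measure, and no scaling of a library can move it. The log2 ratio of Mpc1 to Mpc2 counts was -0.70, -1.28, -1.23, -0.87, -0.80 and -0.69 in ac-WT hearts 1 to 6, and -0.60, -0.32, -0.54, -0.55, -0.51 and -0.35 in ac-CYB5R3-KO hearts 1 to 6. All 6 ac-CYB5R3-KO hearts lay above all 6 ac-WT hearts. The ratio rose by 0.45 on the log2 scale, or 1.37-fold, in the ac-CYB5R3-KO group. The exact permutation test, two-sided, gave p = 0.00216, the smallest these mice can give, and 0.0173 adjusted over 8 ratios. The 8 ratios were chosen with earlier results of these data known, and the adjustment does not cover that choice. With ac-WT hearts 2 and 3 left out the groups still did not overlap and the difference was 0.29. The exact permutation p was then the smallest that 4 against 6 hearts allow, 0.00952, which is 0.0762 after adjustment and past the threshold no longer. Leaving out any 1 mouse gave differences from 0.38 to 0.50 and an adjusted p of 0.0346 each time (exact permutation test). When same-numbered hearts were paired, the exact sign-flip test gave p = 0.0313, the smallest that 6 pairs allow. That is 0.25 after adjustment, so the call was lost there too.

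The promoters of this pair are shown because theirs was the 1 ratio of the 8 tested that separated the groups. Each is the 250 bases before the start in RefSeq (GRCm38.p6, plus strand), 5′ to 3′ in lower case, with the match to CCGGAAG, a motif of ETS factors, in capitals. Mpc1 is chr17:8283537-8283786, the first of its 2 listed starts, and Mpc2 is chr1:165461010-165461259.
Mpc1: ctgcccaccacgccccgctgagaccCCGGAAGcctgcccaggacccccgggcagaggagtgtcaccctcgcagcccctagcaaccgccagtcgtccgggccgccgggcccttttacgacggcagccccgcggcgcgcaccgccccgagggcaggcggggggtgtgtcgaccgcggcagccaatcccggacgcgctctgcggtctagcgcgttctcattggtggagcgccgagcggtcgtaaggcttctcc
Mpc2: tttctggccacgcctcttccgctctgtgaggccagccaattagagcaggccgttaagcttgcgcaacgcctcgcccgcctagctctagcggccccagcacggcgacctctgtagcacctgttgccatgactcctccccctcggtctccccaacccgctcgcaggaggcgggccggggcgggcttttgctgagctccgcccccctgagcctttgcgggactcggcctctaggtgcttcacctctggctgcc
The Mpc1 window shown holds that match 225 bases before the start. The window of the second Mpc1 start (chr17:8284204-8284453, not shown) and the Mpc2 window hold none of the motifs searched. Promoters were listed for 33 of the 37 genes. On both strands, CCGGAAG was found in 3 of the 33 (9.09%), Mpc1, Sdhd and Idh3g, against 7.83% of 27025 genes. The estrogen-related receptor motif TCAAGGTCA was found in 0 of 33, against 0.422% of all genes, and the consensus palindrome of NRF1 in 0 of 33, against 0.877%. A match of letters is a description and not a measured binding site.

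**Figure D3:**
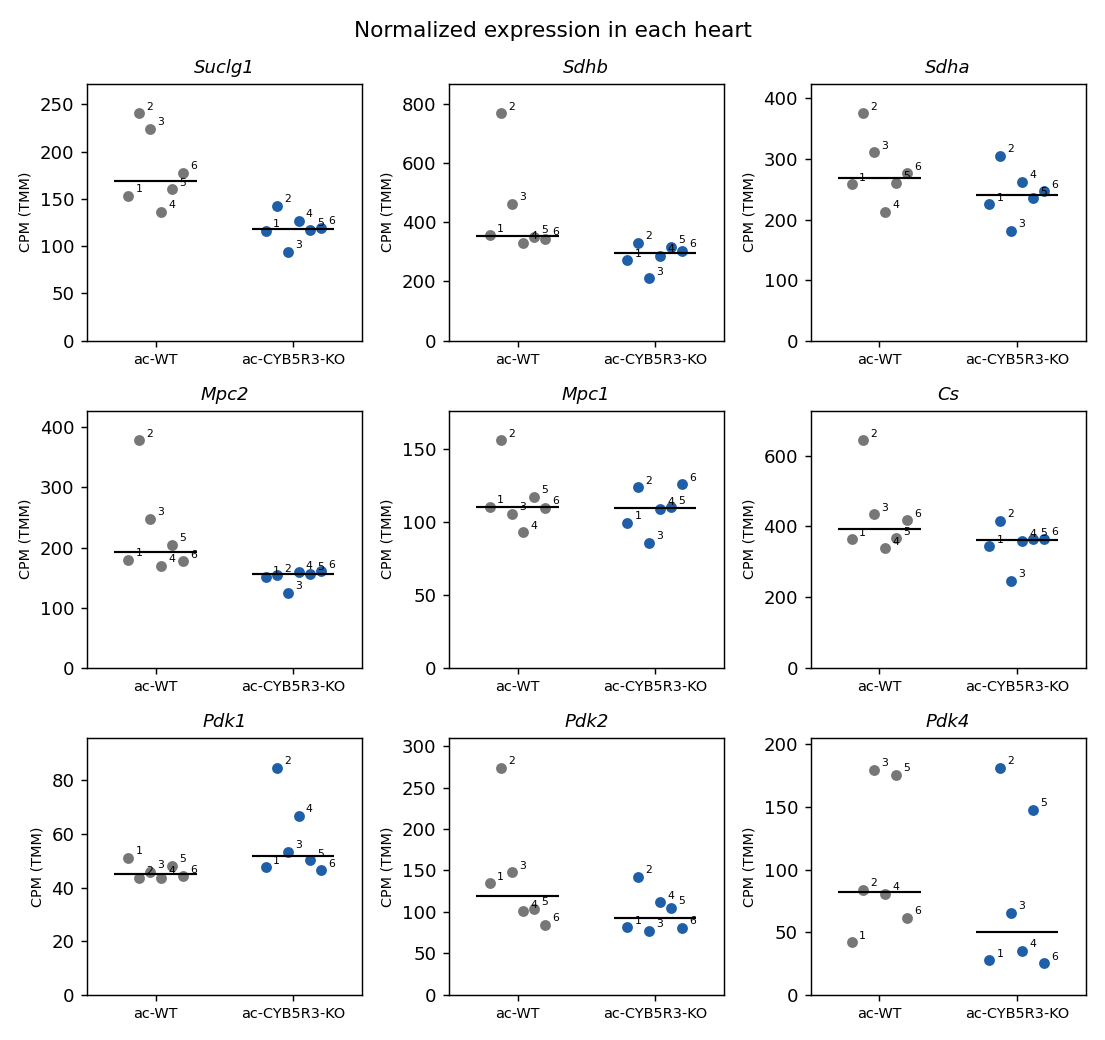
TMM-normalized CPM of 9 genes in each heart, with the replicate number beside each point and the median as a line. The groups do not overlap for Sdhb and Mpc2, ac-WT heart 2 is high for Sdhb, Mpc2, Cs and Pdk2, and Pdk4 spans a wide range in both groups.

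The core subunits of pyruvate dehydrogenase had small fitted differences. Pdha1, the regulated subunit that carries the phosphorylation sites, had a log2 fold change of -0.08 (95% interval -0.41 to 0.24), Dlat, the acetyltransferase core, -0.10, and Pdhx, the binding protein, -0.08. Pdhb, the beta subunit of the first enzyme, had one of -0.29 (95% interval -0.60 to 0.031, edgeR adjusted p = 0.388). None of the 4 had an unadjusted p under 0.05 in edgeR, a level at which 9.73% of all genes were lower. Without ac-WT hearts 2 and 3 Pdha1, Dlat and Pdhx turned positive, at 0.034, 0.034 and 0.056, and with total counts so did all 4, at 0.029 to 0.22.

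Of the kinases that inactivate the complex, Pdk1 was the 1 gene of the 37 that was higher at an unadjusted p under 0.05. It spanned 43.5 to 51.0 CPM (median 45.0) in ac-WT hearts against 46.5 to 84.8 CPM (median 51.8) in ac-CYB5R3-KO hearts. The ac-WT hearts lay close together, and ac-CYB5R3-KO hearts 2 and 4 stood at 84.8 and 66.8 CPM. Its log2 fold change was 0.34 (SE 0.14, edgeR adjusted p = 0.294). It was 0.33 without ac-WT hearts 2 and 3, where the unadjusted p in edgeR was no longer under 0.05, and 0.20 without ac-CYB5R3-KO heart 2. Pdk1 is induced by hypoxia in many cells.

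Pdk2, a widely expressed kinase, spanned 84.8 to 274 CPM (median 119) in ac-WT hearts against 77.3 to 142 CPM (median 93.0) in ac-CYB5R3-KO hearts. The fitted log2 difference was -0.50 (SE 0.26, edgeR adjusted p = 0.397). With ac-WT hearts 2 and 3 left out it was -0.074. Pdk4, the kinase that fasting and fatty acids induce in heart and muscle, stood at 41.9, 83.7, 179, 80.5, 176 and 61.7 CPM in ac-WT hearts 1 to 6 and at 27.7, 181, 65.4, 35.4, 148 and 25.2 CPM in ac-CYB5R3-KO hearts 1 to 6. Hearts 3 and 5 of ac-WT and hearts 2 and 5 of ac-CYB5R3-KO mice were high, and 3 ac-CYB5R3-KO hearts lay below every ac-WT heart. Its log2 fold change of -0.37 had the widest 95% interval of the 37 genes, -1.49 to 0.76 (edgeR adjusted p = 0.761), so these hearts set little limit on a difference in its RNA in either direction. Pdk3 was low, from 2.62 to 9.27 CPM in ac-WT against 5.59 to 6.60 CPM in ac-CYB5R3-KO hearts, with medians of 5.33 and 6.04 CPM and a log2 fold change of 0.05.

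Per kilobase of exon, Pdk2 and Pdk4 made up most kinase RNA in both groups. Pdk2 held a median of 50.4% of it in ac-WT hearts (35.6% to 74.0%) and 53.8% in ac-CYB5R3-KO hearts (39.5% to 62.8%), and Pdk4 34.7% (19.0% to 54.4%) and 27.1% (17.5% to 50.2%). Pdk1 held 7.83% in ac-WT hearts (4.79% to 10.6%) and 13.8% in ac-CYB5R3-KO hearts (7.70% to 15.3%), and Pdk3 3.04% (0.873% to 6.75%) and 4.18% (2.21% to 6.09%). The ranges of the 4 shares overlapped between groups.

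The phosphatase genes were low. Pdp1, the calcium-activated catalytic subunit, had medians of 16.0 CPM in ac-WT and 17.4 CPM in ac-CYB5R3-KO hearts (log2 fold change 0.19, 95% interval -0.052 to 0.43). Pdp2, the other catalytic subunit, had medians of 4.19 and 3.29 CPM (-0.29), and Pdpr, the regulatory subunit, 2.68 and 1.95 CPM (-0.28). The genes that refill the cycle had small fitted differences. Pcx, pyruvate carboxylase, had a log2 fold change of 0.17 (95% interval -0.11 to 0.45), with medians of 12.5 and 13.7 CPM. The mitochondrial malic enzymes Me2 and Me3 had log2 fold changes of 0.08 and -0.26, and both changed sign without ac-WT hearts 2 and 3 (-0.042 and 0.040).

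**Figure D4:**
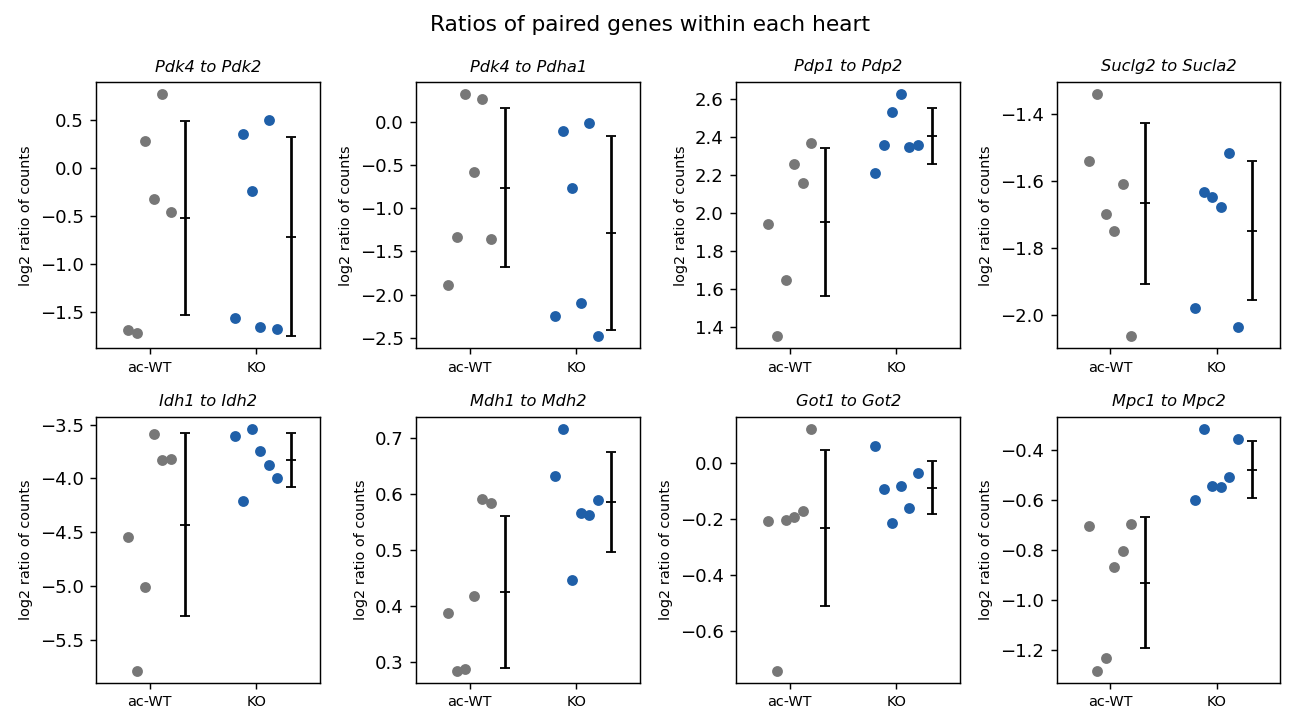
Log2 ratio of the counts of 2 genes within each heart (points) for 8 pairs, with a bar for the mean and SD at the right of each group of 6 hearts, KO being ac-CYB5R3-KO. Mpc1 to Mpc2 is the 1 pair of these 8 without overlap, while the Pdk4 ratios spread over more than 2 log2 units in both groups.

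Of the 8 within-heart ratios, Mpc1 to Mpc2 passed the adjusted threshold. All 8 were chosen with earlier results of these data known, which the adjustment does not cover. The log2 ratio of Pdp1 to Pdp2 was 1.95 ± 0.39 (SD) in ac-WT hearts and 2.40 ± 0.15 in ac-CYB5R3-KO hearts, a difference of 0.45 (exact permutation p = 0.0195, adjusted p = 0.0779). Mdh1 to Mdh2 was 0.43 ± 0.14 in ac-WT and 0.59 ± 0.09 in ac-CYB5R3-KO hearts, a difference of 0.16 (exact permutation p = 0.0368, adjusted p = 0.0981). Without ac-WT hearts 2 and 3 these differences were 0.22 and 0.091. For both, 2 ac-CYB5R3-KO hearts lay above every ac-WT heart and the groups overlapped. The cytosolic to mitochondrial ratios Idh1 to Idh2 and Got1 to Got2 differed by 0.60 and 0.14 (exact permutation p = 0.136 and 0.286). Leaving out ac-WT heart 2 alone gave 0.33 and 0.043, and leaving out hearts 2 and 3 gave 0.12 and 0.025. Suclg2 to Sucla2, the GTP-forming to the ATP-forming partner, differed by -0.081 (exact permutation p = 0.554). Pdk4 to Pdk2 differed by -0.19 (exact permutation p = 0.762), and Pdk4 to Pdha1, a kinase against its substrate, by -0.53 (exact permutation p = 0.379).

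Other genes around the cycle also leaned lower with TMM factors. Of 32 further pathway genes 30 were tested, with Pck1 and Mdh1b under the count filter, and 21 had a lower fitted value (70.0%, against 51.2% of all genes). At an unadjusted p under 0.05, 5 were lower (16.7%, against 9.73%) and 0 were higher (against 4.91%, edgeR). Their median log2 fold change was -0.12, and with total counts 8 of 30 were lower (18.1% of all genes were). With ac-WT hearts 2 and 3 left out 17 of 30 were lower, against 46.2% of all genes, with 2 at an unadjusted p under 0.05 (6.67%, against 4.52%, edgeR) and a median of -0.033. Crat, carnitine acetyltransferase, which buffers mitochondrial acetyl-CoA, spanned 109 to 258 CPM in ac-WT against 76.7 to 106 CPM in ac-CYB5R3-KO hearts, without overlap (log2 fold change -0.72, SE 0.21, edgeR adjusted p = 0.186). With ac-WT hearts 2 and 3 left out it was -0.32. Nnt, which couples NADH to NADPH in mitochondria, was at 0.341 to 1.36 CPM in ac-WT and 0.176 to 0.407 CPM in ac-CYB5R3-KO hearts (log2 fold change -1.29, SE 0.37, edgeR adjusted p = 0.186), a very low level in both groups. Its log2 fold change was -0.78 without the 2 hearts. DESeq2 called Crat and Nnt (adjusted p = 0.0484 and 0.0441), and edgeR called 0 of the 30 genes. The mice were of mixed FVB/B6 origin bred into C57BL/6J, a strain known to carry a partly deleted Nnt gene, and their Nnt alleles are not given in the sources used here.

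The branched-chain ketoacid dehydrogenase is built like pyruvate dehydrogenase and shares its Dld subunit. Of 6 genes of that pathway 5 were lower, against 51.2% of all genes, and 2 with total counts, against 18.1%. Without ac-WT hearts 2 and 3, 3 were lower, against 46.2%, and the median was -0.0034. With all hearts 2 were lower at an unadjusted p under 0.01 in edgeR, against 3.27% of all genes, the subunit gene Bckdhb (log2 fold change -0.46, SE 0.15) and the phosphatase gene Ppm1k (-0.60, SE 0.18). Bckdhb had medians of 15.9 CPM in ac-WT and 12.4 CPM in ac-CYB5R3-KO hearts, and Ppm1k 19.0 and 13.0 CPM. Both pairs of groups overlapped. Without ac-WT hearts 2 and 3 the log2 fold changes were -0.23 and -0.34.

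Among 17 genes for regulators of mitochondrial and fuel genes, 12 were lower, which is 70.6% against 51.2% of all genes. With total counts 5 were lower, against 18.1% of all genes. At an unadjusted p under 0.01, 4 were lower (23.5%, against 3.27%, edgeR), and 0 of 17 had an adjusted p under 0.05 in edgeR (the lowest was 0.184). Ppargc1a, the coactivator PGC-1 alpha, had a log2 fold change of -1.10 (SE 0.33) with medians of 27.1 CPM in ac-WT and 15.5 CPM in ac-CYB5R3-KO hearts, and ac-WT heart 2 stood at 80.3 CPM. DESeq2 called it (adjusted p = 0.0438), as it did Ppargc1b and Ppara (adjusted p = 0.0480 and 0.0362). The other genes with an unadjusted p under 0.01 in edgeR were Ppargc1b, its relative (-1.02, medians 4.05 and 2.42 CPM), Ppara, the fatty acid receptor (-1.12, medians 1.35 and 0.774 CPM), and Perm1, a muscle gene downstream of PGC-1 (-0.91, medians 64.1 and 45.0 CPM). With ac-WT hearts 2 and 3 left out these 4 genes had log2 fold changes of -0.48, -0.42, -0.48 and -0.32. Of the 17, 10 were then lower, against 46.2% of all genes, and the median was -0.027. In edgeR 3 were lower at an unadjusted p under 0.05, against 4.52% of all genes, and 0 under 0.01, against 1.33%. With total counts and all hearts 4 were lower under 0.05, against 2.06%, and 1 under 0.01, against 0.79% (edgeR). Esrra, the estrogen-related receptor alpha, spanned 44.9 to 85.3 CPM in ac-WT against 38.6 to 50.7 CPM in ac-CYB5R3-KO hearts. The log2 fold change was -0.35 (SE 0.17, edgeR adjusted p = 0.344). It was -0.20 without ac-WT heart 2, -0.047 without hearts 2 and 3, and -0.0063 with total counts.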

How the data were processed

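Whole-heart RNA of 12 mice, 6 per group, was sequenced as 75 bp unpaired reads from stranded total RNA libraries. The authors trimmed adapters and mapped the reads with STAR. The deposited values are raw counts, a whole number of reads for each of 53700 Ensembl genes and each heart, with no normalization or filter. The paper's methods name the mm9 genome, while the submitters' processing notes name STAR, featureCounts and GRCm39. The strand setting and annotation release are not given in the sources used here, so reads of overlapping or antisense genes could not be told apart, and no coordinates of the count table are printed. All 12 columns were matched to samples by their titles, and 0 columns were left unused.

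Counts were filtered with filterByExpr (minimum count 10), scaled with TMM factors and tested in edgeR (version 4.0.16, R 4.3.3) by quasi-likelihood, two-sided. P-values were adjusted by the Benjamini-Hochberg method over 17847 genes. The call threshold was an adjusted p under 0.05. Unadjusted p under 0.01 and under 0.05 are given as descriptions beside their share over all genes. Expression is TMM-normalized CPM. Levels were compared between genes only per kilobase of merged exons (GENCODE annotation of NCBIM37). The log2 ratios of counts of 8 gene pairs were compared over the 924 splits of the mice (exact permutation test, two-sided), with adjustment over the 8 pairs. Their smallest possible p is 0.00216. Symbols were found for 31027 identifiers (57.8%) and for all 37 genes described here, Mpc1 and Mpc2 through the older names Brp44l and Brp44. Promoter sequences are from RefSeq (GRCm38.p6).

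The members, lists, ratios and motifs were chosen with earlier results of these data known. Lowest and highest values are given for members with an unadjusted p under 0.01 or groups that do not overlap. They are also given for the kinases, Cs, Sdha, Mpc1 and Mpc2, both genes of a ratio that passed and, beyond the members, Esrra. Values by heart are plotted for some of these members only, and Ppargc1a is given by its medians and highest heart. A further gene that the rule named is not reported here. The other members are given by their counts, medians or ranges and log2 fold changes. Total counts per heart ran from 43393183 to 53754284, and edgeR estimated a biological coefficient of variation of 26.5%, so spread between mice limits precision. Alternative fits used limma-voom (3.58.1), DESeq2 (1.42.0), total-count scaling, no filter, a surrogate variable (sva 3.50.0), a block for the replicate number, leaving out each mouse, and leaving out ac-WT mice 2 and 3 together. For the ratios a count of 10 was also added to both genes, and same-numbered mice were compared by an exact sign-flip test. The edgeR test was also run on simulated counts, and the outcome is not given here. The labels do not say what a replicate number marks, and the main tests did not pair mice by it.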

Additional observations from a re-analysis of the deposited data

Results flagged for a closer look

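The gap between the highest or lowest heart and its nearest neighbour was tested in 90 groups of 6 hearts (Dixon's 95% critical value for 6 samples, 0.625), and chance alone flags about 1 in 20. It was passed in 14 groups, and 13 of these are high values of ac-WT heart 2, the library with the TMM factor of 0.570 and the largest sum of cardiomyocyte markers. In that heart the cycle genes Cs stood at 644 CPM (next ac-WT heart 434 CPM), Idh3b at 296 CPM (183 CPM), Ogdh at 842 CPM (479 CPM), Dld at 155 CPM (107 CPM) and Suclg2 at 82.1 CPM (53.3 CPM). Sdhb stood at 768 CPM (462 CPM), Fh1 at 298 CPM (161 CPM), Mdh1 at 1116 CPM (760 CPM) and Mdh2 at 916 CPM (586 CPM). Of the genes of pyruvate entry and transamination, Pdk2 stood at 274 CPM (148 CPM), Mpc2 at 378 CPM (248 CPM), Got2 at 431 CPM (286 CPM) and Me3 at 48.2 CPM (28.1 CPM). The remaining value was a low one, Mpc2 at 124 CPM in ac-CYB5R3-KO heart 3, where the other hearts of the group ran from 150 to 161 CPM.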

How the results depend on the processing

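The log2 fold changes of the 37 genes depended most on the scaling, on ac-WT hearts 2 and 3 and on the surrogate variable, and the cause was not tested. Scaled by total counts, the 37 genes had a median log2 fold change of 0.041, and 12 had a lower fitted value, against 18.1% of all genes. In edgeR 0 were lower at an unadjusted p under 0.05, against 2.06%, and 0 under 0.01, against 0.79%. Of the 37 genes 0 had groups that did not overlap. The signs then turned for Cs (0.029), Idh1 (0.19), Idh3a (0.074), Idh3g (0.089), Ogdh (0.14), Dld (0.17), Sucla2 (0.096), Suclg2 (0.041), Sdha (0.089), Mdh1 (0.18), Mdh2 (0.026), Pdha1 (0.21), Pdhb (0.029), Dlat (0.20), Pdhx (0.22), Pdp2 (0.035), Pdpr (0.023), Got1 (0.032), Me3 (0.088) and Mpc1 (0.21). Without ac-WT hearts 2 and 3, 2 genes were lower at an unadjusted p under 0.05 in edgeR (5.41%, against 4.52% of all genes). Under 0.01 it was 1 gene, against 1.33% (edgeR). Groups did not overlap for 1 gene, and Ogdh (0.060), Dld (0.012), Mdh1 (0.043), Pdha1 (0.034), Dlat (0.034), Pdhx (0.056), Pdk3 (-0.17), Me2 (-0.042), Me3 (0.040) and Mpc1 (0.032) changed sign. With 1 surrogate variable 2 genes were lower at an unadjusted p under 0.05 in edgeR (5.41%, against 5.19% of all genes) and 0 under 0.01. Ogdh (0.097), Dld (0.0028), Mdh1 (0.014), Pdha1 (0.027), Pdhx (0.024), Pdk2 (0.038), Pdk3 (-0.29), Me2 (-0.12), Me3 (0.047) and Mpc1 (0.020) changed sign. DESeq2 called 1 of the 37 genes and gave 6 lower at an unadjusted p under 0.01, with 437 of all genes called against 18 by edgeR. Under 0.05 DESeq2 gave 9 lower (24.3%, against 10.6% of all genes). With no filter 1 gene had groups that did not overlap and Idh1 turned to 0.00073.

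Leaving out 1 heart gave 1 to 5 genes lower at an unadjusted p under 0.01 in edgeR (5 without ac-WT heart 4, and 1 without ac-WT heart 3 or any ac-CYB5R3-KO heart but heart 2). Under 0.05 it gave 5 to 13 (5 without ac-WT heart 2), which is 13.5% to 35.1%, against 6.21% to 11.6% of all genes. A lower fitted value was found for 27 to 33 genes, and the median was -0.34 to -0.12. Shares of all genes under 0.01 or without overlap are not given for these fits. Groups did not overlap for 1 to 5 genes (5 without ac-CYB5R3-KO heart 2, 3 without ac-WT heart 4, and 1 without ac-WT heart 3 or ac-CYB5R3-KO heart 4). The signs of Ogdh (-0.31 to 0.014), Mdh1 (-0.23 to 0.028), Pdha1 (-0.19 to 0.032), Dlat (-0.20 to 0.0093), Pdhx (-0.14 to 0.010) and Mpc1 (-0.14 to 0.035) turned without ac-WT heart 2, that of Pdk3 (-0.084 to 0.23) without ac-WT heart 1 or 2, and that of Idh1 (-0.077 to 0.038) without ac-WT heart 4, 5 or 6 or ac-CYB5R3-KO heart 3. Cyb5r3 ran from -1.31 to -1.08 (edgeR adjusted p from 0.0337 to 0.136, lost without ac-WT heart 3, 5 or 6 or ac-CYB5R3-KO heart 1, 2, 3, 4 or 5), and was -1.17 in limma-voom (adjusted p = 0.0561) and -1.03 with total counts (edgeR adjusted p = 0.315). The ratio of Pdp1 to Pdp2 ran from 0.33 to 0.53, past the threshold without ac-WT heart 6, and Pdk4 to Pdk2 from -0.43 to 0.066, with the sign turned without ac-WT heart 5 or ac-CYB5R3-KO heart 6. The ratio of Mpc1 to Mpc2 was 0.29 without ac-WT hearts 2 and 3. Adding 10 counts changed no call on the ratios.

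The labels do not say what a replicate number marks. The deviations of same-numbered hearts correlated at -0.072 to 0.35, and 4 of the 6 pairs passed 0.1, short of the requirement that every pair do so, so the numbers were treated as names only. As a hint from the data and not the design, 6 of 12 hearts correlated best with their own number. With the replicate number as a block, 1 gene was lower at an unadjusted p under 0.01 in edgeR and 11 under 0.05 (29.7%, against 8.68% of all genes). Cyb5r3 was -1.18 and no longer called by edgeR, and Idh1 turned to 0.00016. The ratio of Mpc1 to Mpc2 stayed 0.45, with the smallest p that 6 pairs can give, 0.0313 (exact sign-flip test). This is 0.25 after adjustment over the 8 ratios, past the threshold no longer.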
